A study of Mus musculus with 4 samples.

Results

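The genes described here encode the BBSome, a protein coat of the cilium, and its close partners. They are 10 of the 21938 protein-coding genes of the mouse annotation used, and were listed by name for the role of their products. Earlier results of these data were known when the list was made, so it is not a blind selection. The 8 genes Bbs1, Bbs2, Bbs4, Bbs5, Bbs7, Bbs9, Ttc8 and Bbip1 encode subunits, and the 2 genes Arl6 and Lztfl1 encode partners. For each gene, the peaks of RFX2 in mouse testis that met its promoter or lay nearest to it were examined. RFX2 belongs to the Regulatory Factor X transcription factors, which bind an inverted repeat called the X-box and are known regulators of genes for cilia. A promoter was taken as the 1000 bp before and the 500 bp after any annotated transcription start site (TSS) of the gene.

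RFX2 binding was measured by ChIP-seq, in which chromatin is immunoprecipitated with an antibody and its DNA sequenced. Per the labels, chromatin came from decapsulated testes of 2 independent wild type (WT) mice on a mixed C57BL/6, 129/Sv and FVB/N background at postnatal day 29 to 30. The text of the study gives a younger age and a germ cell preparation, and the peak lists hold nothing that could settle this or show which testicular cell types were present. The 4 samples were 2 immunoprecipitates with an RFX2 antibody from Santa Cruz Biotechnology (replicates 1 and 2) and 2 inputs. All 4 samples were WT and the inputs had no list of their own, so the values below were not set against testis without RFX2. In whole tissue, binding in more cells and stronger binding per cell cannot be told apart. Replicate 1 had 39825 peaks and replicate 2 had 21274. A further list of 2726 peaks with summits, called the combined list here, appears to pool both mice. How many reads stand behind a list is unknown, and with 2 mice of 1 condition there is no contrast to test, so the values are given as descriptions.

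The BBSome carries membrane proteins, such as signalling receptors, into and out of cilia along the intraflagellar transport (IFT) machinery. ARL6, a small GTPase, recruits the BBSome to membranes, and LZTFL1 restrains its entry into the cilium. Mutations in most of these genes cause Bardet-Biedl syndrome (BBS), and male mice that lack Bbs2 or Bbs4 do not form sperm flagella.

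The sequences that best matched the X-box at the members' promoter peaks are shown first, because most lie near the summit of a combined peak. Bbs2 and Bbs9 are exceptions, and for Bbs9 a poorer match nearer the summit is shown. Bbs2 had no combined peak and thus no summit. The X-box consists of the arm GTTGCC and its reverse complement GGCAAC, usually 2 bases apart. Each sequence below is read in the direction of transcription of the gene, with the bases that match the arms in capitals. The 5 sites that lie in exons of 5′ untranslated regions (UTR), and the site of Bbs7 next to one, are shown with a few bases on each side.
Bbs1: tgagctgGTTGCCaaGGCgACgcctggga
Bbs4: tcagctgGTcGCCcgGGaAACggtcggct
Bbs5: gccggcgcGTTGCCttGGCgcCcataaga
Bbs7: cgccccgGTTGCCttGGaAACcggccagc
Bbip1: gttccccGTTaCCccaGGCAACagcagag
Arl6: agctcccGTTGCCaaGGgAACgccgcgcg
In GRCm38, these stretches lie at chr19:4906605-4906633 (Bbs1, minus strand), chr9:59353464-59353492 (Bbs4, minus strand), chr2:69647205-69647233 (Bbs5, plus strand), chr3:36613489-36613517 (Bbs7, minus strand), chr19:53944439-53944467 (Bbip1, minus strand) and chr16:59639152-59639180 (Arl6, minus strand).

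The sites of Ttc8 and Lztfl1 lay further upstream of the gene, and that of Bbs2 in an intron, so that more of the sequence around them is shown.
Ttc8: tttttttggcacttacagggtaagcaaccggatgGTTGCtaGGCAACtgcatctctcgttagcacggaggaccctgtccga
Lztfl1: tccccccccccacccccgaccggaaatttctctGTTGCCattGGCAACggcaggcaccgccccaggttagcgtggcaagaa
Bbs2: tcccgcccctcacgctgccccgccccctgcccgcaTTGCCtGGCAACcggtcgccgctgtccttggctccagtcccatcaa
They lie at chr12:98920278-98920358 (Ttc8, plus strand), chr9:123717742-123717822 (Lztfl1, minus strand) and chr8:94098119-94098199 (Bbs2, minus strand). The Lztfl1 site was the only member site with all 12 arm bases in place. In Bbs9 no site of this kind lay near the summit. Its best match by arms, at chr9:22475794-22475806, had 3 mismatches and was centred 70 bp from the summit. The best match to the palindrome lay nearer and is shown within chr9:22475718-22475746 on the plus strand. It kept 8 of the 12 arm bases.
Bbs9: cgttgtaaaaTGCtatGaCAACagggcga
All sequences were read from the RefSeq copy of GRCm38, patch 6.

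RFX2 peaks were present at the promoters of all 10 genes in each mouse. Over all protein-coding genes, 14% had a promoter peak in replicate 1, 11.3% in replicate 2 and 9.05% in both. In the combined list 9 of the 10 members had a promoter peak, against 5.26% of all genes, and the exception was Bbs2. A gene with many annotated starts has more promoter sequence to meet a peak, and the members had a median of 7 starts (3 to 11) against 3 over all genes. Among the 13048 genes with at least 3 starts, 12.2% had a promoter peak in both replicates and 6.94% in the combined list. With the 5′-most start of protein-coding transcripts alone, the member counts were again 10 in each replicate and 9 in the combined list, beside 7.07% of genes in both replicates and 4.48% in the combined list.

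**Figure D1:**
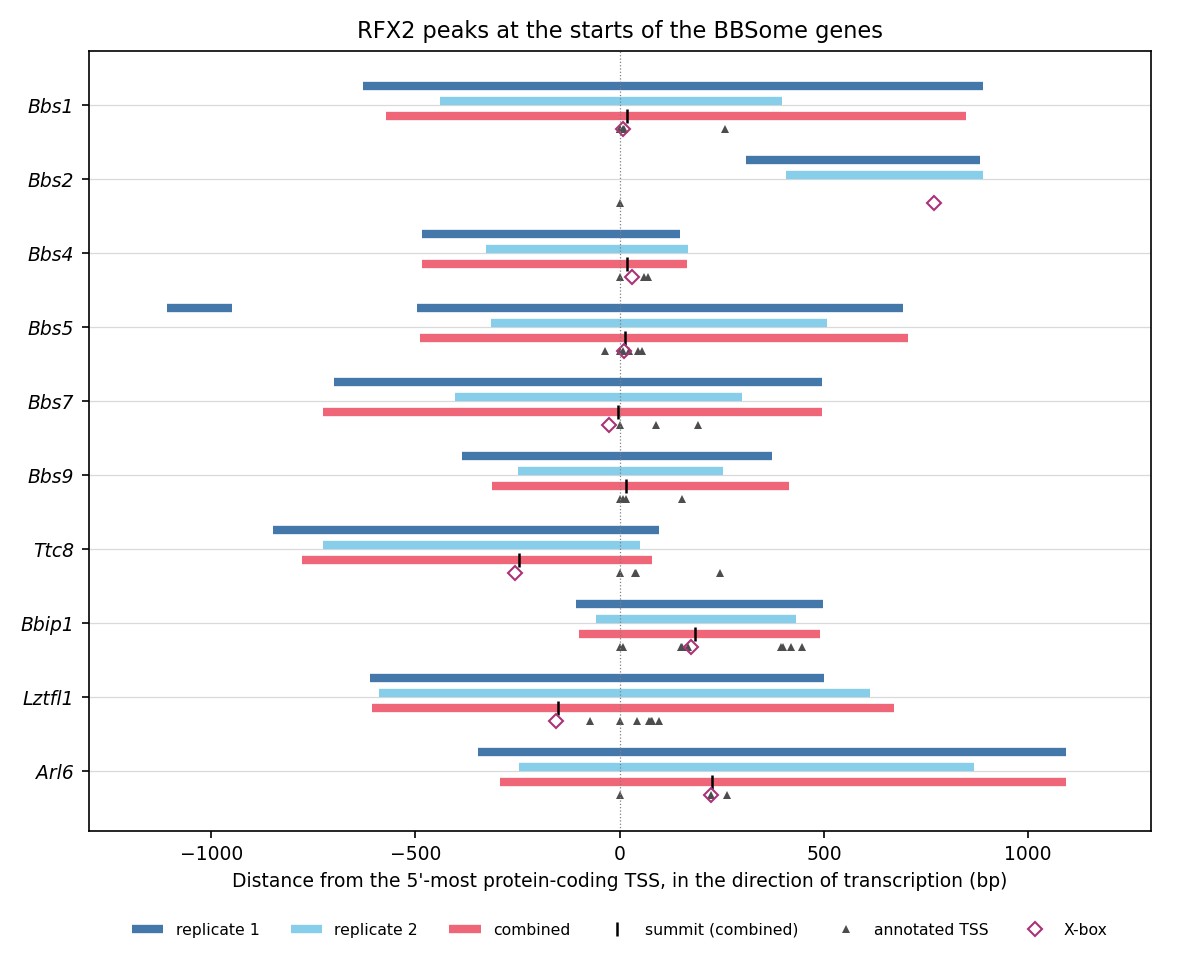
RFX2 peaks around the starts of the 10 genes, by distance in bp from the 5′-most protein-coding TSS in the direction of transcription. Bars are peaks of replicate 1, replicate 2 and the combined list, black ticks are summits of combined peaks, triangles are annotated TSSs and diamonds are the best X-box. In 9 genes all 3 lists overlap at the start, and Bbs2 has bars of the replicates only, which lie downstream of its start.

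The strength of the peaks spanned a wide range among the members. The score is the value on a −log10 scale that the peak caller gave each peak, and it grows with sequencing depth as well as with enrichment, so it is compared by rank within a list. The median of the members' strongest promoter peak was 111 in replicate 1 and 56.2 in replicate 2. Over all genes with a promoter peak in the same list, the medians were 17.4 and 13.4. In each replicate 9 of 10 members were above that median, and Bbs2 was below it in both. In the combined list the members' median −log10 p was 161, against 105.5 over the 1153 genes with a promoter peak, and 6 of 9 members were above it.

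**Figure D2:**
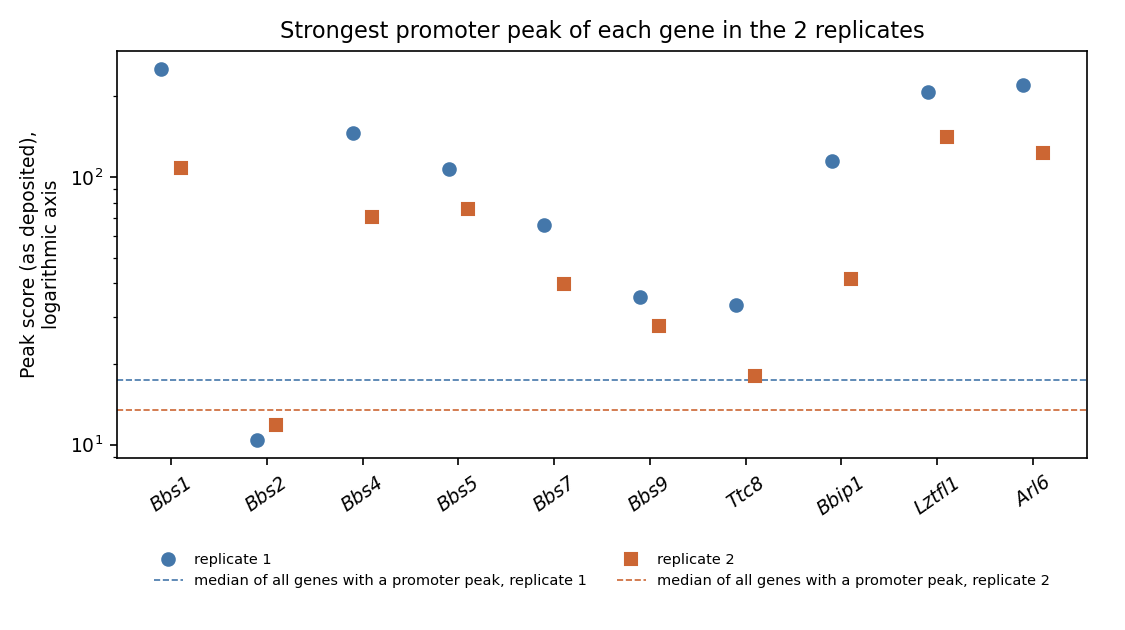
Score of the strongest promoter peak of each gene in replicate 1 (circles) and replicate 2 (squares) on a logarithmic axis, with dashed lines at the medians of all genes with a promoter peak in each list. Bbs1, Arl6 and Lztfl1 are the highest in both mice, and Bbs2 is the only gene below both lines.

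Both partners of the BBSome ranked high by −log10 p and less so by fold enrichment, where Lztfl1 ranked 878 and Arl6 1059 of 2726. At Arl6, which encodes the GTPase that recruits the complex, the score was 220.6 in replicate 1 (rank 76) and 122.6 in replicate 2 (rank 57). In the combined list the peak ran over chr16:59638298-59639683 and ranked 101, at a −log10 p of 254.3 and 18.9-fold enrichment. Its summit lay 2 bp downstream of a TSS, in an exon of the 5′ UTR. The same peak met the promoter of 4930547E14Rik, a non-coding transcript, so it cannot be assigned to Arl6 alone. The X-box of Arl6, shown above with 1 mismatch in its arms, was centred 1.5 bp from the summit.

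At Lztfl1, which encodes a regulator of BBSome entry into cilia, the score was 207.02 in replicate 1 (rank 111) and 140.7 in replicate 2 (rank 24). This was the highest score of any member in replicate 2, whereas Bbs1 was highest in replicate 1. In the combined list the peak, at chr9:123716953-123718232, ranked 90 (−log10 p of 263.0, 20.2-fold enrichment). Among the 9 combined member peaks this was the only one that held 2 sites. The perfect site was centred 5 bp from the summit, at −85 bp relative to the nearest TSS. A second site with 1 mismatch, at chr9:123717605-123717619, lay 165 bp further along the gene from the summit and had the same 3 bases between its arms.
Lztfl1 second site: GTTcCCattGGCAAC
The 3 bases between the arms complete the reverse complement of CCAAT, the box bound by the factor NF-Y, in both sites, so that the motifs overlap there. The perfect site within the 150 bases upstream of the first annotated start, at chr9:123717698-123717847, which also lie in an intron of a long Ccr9 transcript on the opposite strand, reads as follows.
Lztfl1 upstream: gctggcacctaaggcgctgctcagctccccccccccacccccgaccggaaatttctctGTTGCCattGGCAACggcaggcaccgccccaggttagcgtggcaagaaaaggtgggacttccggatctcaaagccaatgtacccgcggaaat

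Among the subunits, Bbs1 had the strongest peak. Bbs1 contains a beta-propeller domain and is the subunit that ARL6 contacts. Its score was 252.8 in replicate 1 (rank 48) and 108.4 in replicate 2 (rank 87). In the combined list, the peak at chr19:4905781-4907200 was enriched 30.3-fold and ranked 41 (−log10 p of 303.5). Its summit lay 8 bp downstream of a TSS in the 5′ UTR, and the X-box with 1 mismatch was centred 9.5 bp upstream of the summit, within 1 bp of a TSS.

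Bbs4, a subunit made of tetratricopeptide repeats, scored 145.8 in replicate 1 (rank 307) and 70.6 in replicate 2 (rank 288). The combined peak at chr9:59353344-59353993 ranked 275 by −log10 p, which was 192.4. Its fold enrichment of 36.6 was the highest of the members, ahead of Bbs1. The summit was 18 bp downstream of the TSS in the 5′ UTR, and the site centred 11.5 bp downstream of the summit had 1 mismatch in each arm.

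Bbs5, which contains lipid-binding domains, scored 107.1 in replicate 1 (rank 590) and 75.8 in replicate 2 (rank 237). Its combined peak, chr2:69646719-69647915, was enriched 18.1-fold with a −log10 p of 161.4 and ranked 430, which was the median rank of the members. The summit lay 4 bp from a TSS in the 5′ UTR and fell within the X-box, whose first arm was perfect and whose second arm had 2 mismatches. Replicate 1 held another weak peak centred at −993 bp relative to the nearest TSS, with a score of 6.09, which replicate 2 did not list.

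Bbip1, the smallest subunit, scored 115.2 in replicate 1 (rank 513) and 41.7 in replicate 2 (rank 682). Its combined peak, chr19:53944137-53944727, ranked 574 at a −log10 p of 139.8 and was enriched 16.2-fold. The summit lay 18 bp downstream of a TSS in the 5′ UTR. This peak also met the promoter of Shoc2, a protein-coding gene, and the value belongs to both genes. The X-box had 3 bases between its arms and was centred 11 bp upstream of the summit.

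Ttc8, a further subunit with tetratricopeptide repeats, had the weakest combined peak of the members. The score was 33.3 in replicate 1 (rank 2761) and 18.1 in replicate 2 (rank 2013). The combined peak at chr12:98919797-98920654 had a −log10 p of 49.9, close to the lowest value of the list, 43.2. It had an 11.8-fold enrichment and ranked 2383. Its summit lay 246 bp upstream of the nearest TSS, the largest distance among the members. From the 5′-most start of protein-coding transcripts, other summits were also far, at 226 bp downstream (Arl6), 185 bp downstream (Bbip1) and 152 bp upstream (Lztfl1). By that measure 5 of 9 members lay within 20 bp. The X-box of Ttc8 was nevertheless near the summit of its peak, centred 10 bp from it, with only 1 base between the arms and 1 mismatch. The 300 bases upstream of the first annotated start, chr12:98920274-98920573, held this site alone.
Ttc8 upstream: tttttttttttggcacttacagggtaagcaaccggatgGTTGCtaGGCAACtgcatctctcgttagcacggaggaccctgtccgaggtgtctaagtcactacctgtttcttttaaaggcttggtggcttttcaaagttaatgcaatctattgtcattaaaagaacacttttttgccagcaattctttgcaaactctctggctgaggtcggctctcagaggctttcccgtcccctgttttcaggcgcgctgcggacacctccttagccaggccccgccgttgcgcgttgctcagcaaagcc
Replicate 1 listed another peak at −706 bp relative to an internal start of Ttc8, with a score of 4.47, and no peak of replicate 2 or of the combined list met that promoter.

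Bbs2, Bbs7 and Bbs9 encode the subunits that assemble first into the core of the complex. By score or −log10 p, their peaks were weaker than those of the other members except Ttc8. That of Ttc8 was below those of Bbs7 and Bbs9 in every list. This was seen after the values were known and was not tested. At Bbs7 the score was 66.0 in replicate 1 (rank 1280) and 39.96 in replicate 2 (rank 725). In the combined list it ranked 1006 (chr3:36612982-36614203, −log10 p of 102.3, 11.8-fold enrichment), and its summit lay 5 bp upstream of a TSS. The X-box, with a perfect first arm and 1 mismatch in the second, was centred 21.5 bp upstream of the summit, the largest distance among the members with a site. The 150 bases upstream of the first start of Bbs7, chr3:36613478-36613627, show it near the 3′ end.
Bbs7 upstream: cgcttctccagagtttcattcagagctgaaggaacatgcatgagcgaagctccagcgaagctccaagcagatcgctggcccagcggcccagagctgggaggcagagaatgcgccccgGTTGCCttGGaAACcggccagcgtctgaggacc

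At Bbs9 the score was 35.6 in replicate 1 (rank 2583) and 27.7 in replicate 2 (rank 1161). The combined peak at chr9:22475402-22476129 ranked 1950, with a −log10 p of 60.3. Its fold enrichment of 8.92 was the lowest of the 9 members. The peak sat on the start of the gene as closely as any, with the summit 1 bp from a TSS. No X-box by either definition used here lay within the 200 bp around this summit. The best match to the palindrome, shown above, had 4 mismatches over 14 bases and was centred 2.5 bp from the summit.

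Bbs2 had the weakest peaks of all. The score was 10.4 in replicate 1 (rank 7849) and 11.8 in replicate 2 (rank 2951), and the combined list had no peak at the gene. Its nearest combined peak was 468.4 kb from a TSS, within Cpne2. The replicate 1 peak ran from 94098046 to 94098618 on chromosome 8 and the replicate 2 peak from 94098039 to 94098522, so they covered nearly the same sequence. Their centres lay 596 and 648 bp downstream of the TSS at 94098928, beyond the promoter window, which they met only with their upstream end. They lay 177 and 229 bp downstream of the start that RefSeq gives, 94098509, in a coding exon. The peaks of both replicates held the intronic site shown above, which had 1 mismatch, and a further site with 2 mismatches at chr8:94098421-94098433.
Bbs2 further site: GcTGCtaGGCAAC
The first of these was centred 173 bp from the centre of the replicate 1 peak, and the further site 95 bp on the other side of it. Since the replicate lists give no summit, the position of the sites within the Bbs2 peaks could not be compared with that in the other members.

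The absence of Bbs2 from the combined list was usual for peaks of its score. Of the 574 promoter peaks of replicate 1 with scores within a factor of 1.5 of that of Bbs2, 6 (1.05%) were met by a combined peak. In replicate 2, 145 of 541 such peaks (26.8%) were met. Peaks that the combined list leaves out can still hold X-boxes. Of the 762 replicate 1 promoter peaks that met replicate 2 but not the combined list, 18.6% held a site with at most 1 mismatch, as that of Bbs2, against 0.262% of flanking stretches of the same length.

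The order of the members was similar in both mice. Spearman's rho of the scores was 0.915 across the 10 genes, and 0.880 across all 1985 genes with a promoter peak in both replicates. These correlations describe genes measured in the same pair of libraries. Bbs1, Arl6 and Lztfl1 took the first 3 places in both replicates, in a different order. The ratio of the replicate 1 to the replicate 2 score had a median of 1.73 among the members, from 0.882 at Bbs2 to 2.76 at Bbip1, against a median of 1.93 over the 1985 genes. Bbs2 was the only member with a higher score in replicate 2. In those genes the ratio at the 10th percentile was 0.913, so that the ratio of Bbs2 lay below it. The centres of the 2 replicate peaks of a member were 2 to 152 bp apart, with a median of 51 bp, against 59 bp over 1901 genes whose strongest peaks overlapped. The combined summit lay inside the peaks of both replicates in 9 of 9 members.

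**Figure D3:**
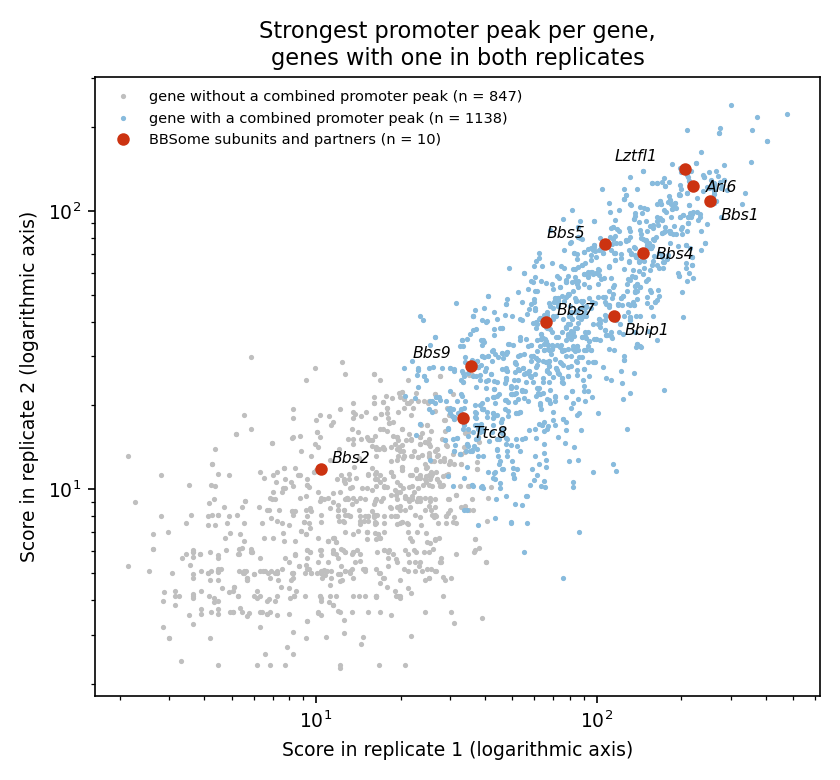
Score of the strongest promoter peak in replicate 1 against replicate 2, both on logarithmic axes, for the 1985 genes with such a peak in both mice. Red points are the members, blue points genes with a combined promoter peak and grey points those without. The members run along the cloud from Bbs2, among the grey points, to Bbs1, Arl6 and Lztfl1 near its upper end.

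Ranking by fold enrichment in place of −log10 p changed the standing of the members. Their median rank in the combined list was 430 by −log10 p and 1179 by fold. All 1003 combined promoter peaks had median ranks of 992 and 1761, so the members were nearer the top than promoter peaks at large in both. Bbs4 moved from 275 to 109, while Lztfl1 and Arl6 moved down from 90 and 101, as given above. Across the 9 members the rho of −log10 p with fold was 0.883, and across all combined promoter peaks it was 0.709, both values coming from the same reads.

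Most summits of the member peaks lay close to an annotated TSS, but how close depended on the starts used. The median distance from the summit to the nearest TSS was 8 bp (1 to 246 bp, n = 9), and 7 of 9 summits (77.8%) lay within 20 bp. Over all 1003 combined promoter peaks the median was 58 bp and 26.7% lay within 20 bp. A gene with more annotated starts has more chances of a short distance, and the members have more than most genes. The exceptions were Ttc8 and Lztfl1, whose summits were 246 and 80 bp upstream. From the 5′-most start of protein-coding transcripts the median was 18 bp and 5 of 9 summits lay within 20 bp, against 116 bp and 16.3% over all promoter peaks. From the RefSeq start the median was 93 bp and 3 of 9 lay within 20 bp, against 130 bp and 16.6%.

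To see how the members differ in their X-box, the sites were searched within 200 bp around the summit of each combined peak on both strands. The palindrome of 14 bases, in which the arms are 2 bases apart, was found with at most 3 mismatches in 4 of 9 members, namely Bbs1, Bbs5, Bbs7 and Arl6. It was found in 58.9% of the 1003 promoter peaks and in 0.798% of windows 1000 bp to the right. When the arms were allowed to be 0 to 4 bases apart with at most 2 mismatches over their 12 bases, a search chosen after seeing the data, a site was found in 8 of 9 members. That share was 64.5% in all combined promoter peaks and 2.29% in the flanking windows. With at most 1 mismatch, 6 of 9 members held a site, beside 25.2% of promoter peaks. A site without a mismatch was present in 1 of 9 members, Lztfl1, and in 5.78% of promoter peaks. The rise from 4 to 8 came from Bbs4, whose bases between the arms also departed from the palindrome, and from Ttc8, Bbip1 and Lztfl1, whose arms were 1 or 3 bases apart.

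The arms of the member sites were 2 bases apart in 5 of 8 members, 3 apart in 2 and 1 apart in 1. Among the 647 combined promoter peaks with a site, 76.7% had 2 bases between the arms, 13.3% had 1 and 8.81% had 3. The perfect arm was the first in Bbs1, Bbs5, Bbs7 and Arl6, the second in Ttc8 and Bbip1, and both in Lztfl1, as the capitals above show. Of the 2 sites with 2 mismatches, that of Bbs5 had both in 1 arm and that of Bbs4 had 1 in each.

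The sites lay under the summits. The centre of the X-box was 0.5 to 21.5 bp from the summit in the 8 members, with a median of 9.75 bp. All 8 were within 25 bp, as were 81.1% of the 647 promoter peaks with a site, whose median distance was 7 bp. These 8 sites also lay inside the peaks of both replicates. With the window placed around the middle of the peak instead of the summit, the palindrome was found in 1 of 9 members and the spaced site in 4. Over all 1003 combined promoter peaks these shares were 33.2% and 37.2%, also lower than around the summit.

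**Figure D4:**
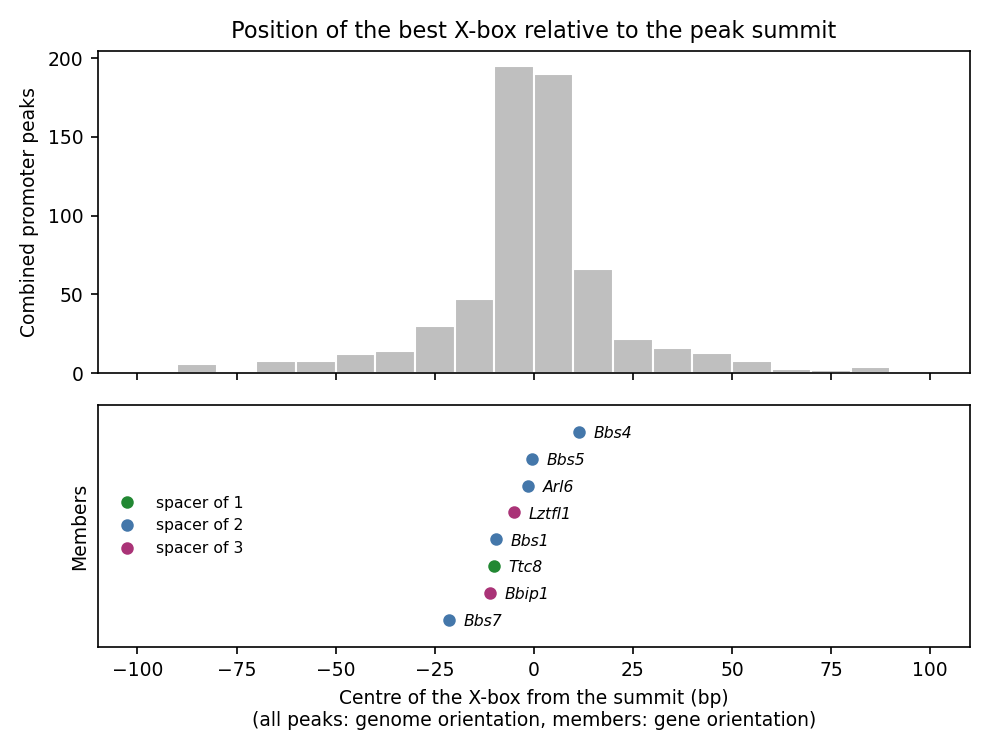
Distance in bp from the summit of the combined peak to the centre of the best X-box. The upper panel counts the 647 promoter peaks with a site in bins of 10 bp, and the lower panel shows the 8 members, coloured by the number of bases between the arms, all within 25 bp of the summit.

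The base composition of the member peaks was near that of other promoter peaks. The G+C content of the 200 bp around the summit was 58.7% ± 6.79 in the members (SD, n = 9) and 58.8% ± 7.57 in all combined promoter peaks (n = 1003). Combined peaks outside promoters had 48.9%. The members ran from 44.5% at Ttc8 to 67.0% at Bbs7. The ratio of observed to expected CpG had a median of 0.699 in the members, 0.704 in promoter peaks and 0.187 outside promoters.

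The promoters themselves were also searched in the RefSeq set, which gives 250 bases before and 50 after each start and held all 10 members. Sites with arms 0 to 4 bases apart and at most 2 mismatches were present in 4 of 10 members (Bbs1, Bbs4, Bbs7 and Lztfl1) and in 7.33% of 32817 promoters. The CCAAT box, searched on both strands, was present in 4 of 10 members (Arl6, Bbip1, Bbs1 and Lztfl1). This was near its share of 37.4% over all promoters. The word TGACGTCA, which is its own reverse complement and to which CREB and CREM proteins bind, was in 0 of 10 members and 1.79% of promoters. These windows are narrower than the peaks, and some of the sites shown above lie outside them.

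Inside the gene bodies but outside promoters, 13 peaks of replicate 1 lay in 3 members and 6 peaks of replicate 2 in 4, and the combined list had 0. Over the 682.7 kb of the 10 genes this is 1.90 peaks per 100 kb in replicate 1 and 0.879 in replicate 2, against 1.46 and 0.781 over the genome. The genome rates count all peaks, of which 7.88% and 11.5% met promoters, so the measures are not alike. The short genes with such a peak had high rates from few peaks, namely Bbs2 with 3 in replicate 1 (9.69 per 100 kb), Bbip1 with 2 in replicate 2 (13.5) and Lztfl1 with 1 in each replicate (4.30). The gene body of Bbs9, which is 412.6 kb long, had 9 peaks outside the promoter in replicate 1, with scores up to 16.3. This is 2.18 peaks per 100 kb. In replicate 2 there were 2, or 0.485 per 100 kb. The nearest combined peaks outside the members' promoters were between 64.2 kb (Bbs9) and 2060.5 kb (Arl6) from a TSS. The one nearest to Bbs7, at 699.0 kb, lay in the promoters of Bbs12, Cetn4 and Gm43439.

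Genes that work with the BBSome were looked up in the same way. The BBSome is assembled with the help of chaperonin-like proteins, and 1 of these 3 genes had a promoter peak. This was Bbs12, ranked 353 in the combined list with a −log10 p of 175.6 and sharing its peak with Cetn4, while Mkks and Bbs10 had no promoter peak in any list. Among other genes mutated in Bardet-Biedl syndrome, 7 of 8 had one in both replicates and in the combined list. The strongest were Mks1, a transition zone gene (rank 294, −log10 p of 188.0), Sdccag8, a centrosomal gene (rank 633, shared with Cep170) and Ift172, an IFT gene (rank 1115). Trim32, a ubiquitin ligase gene, had none.

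Of 9 genes that regulate BBSome traffic, 4 had a promoter peak in both replicates and 2 in the combined list. These 2 were Cep19, ranked 309 and sharing its peak with Pigx, and Ift27, a small GTPase gene ranked 1213. Rab8a, Ccdc28b, Cep131 and Hspb11 had a promoter peak in no list. The 6 genes for membrane receptors that the BBSome is known to carry, Sstr3, Mchr1, Smo, Gpr161, Npy2r and Drd1, had 0 promoter peaks in any list, although a list shows only what passed the threshold of its call. The cargo genes listed stood at 0 of 6, the subunits at 8 of 8 and the partners at 2 of 2 in each mouse, beside the 14% and 11.3% of all genes. With only 6 genes, 0 lies near those shares, so it does not set the receptor genes apart from other genes.

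In the IFT-B complex, which drives movement to the tip of the cilium, 13 of 18 genes had a promoter peak in both replicates and 13 in the combined list. Ttc30a2 ranked 9 there with a −log10 p of 368.9, Ttc26 ranked 190 and Ift22 ranked 297, whereas Ift20, Hspb11 and Ift46 had no promoter peak. In IFT-A, which serves the return and the entry of membrane proteins, 5 of 6 genes had a promoter peak in both replicates and 3 in the combined list. These were Ift122, ranked 226 and sharing its peak with Mbd4, Wdr35, ranked 891, and Wdr19, ranked 2594. Ttc21b had none. Ift27 stands in 3 of these lists, and Ift74, Ift172 and Hspb11 in 2.

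**Figure D5:**
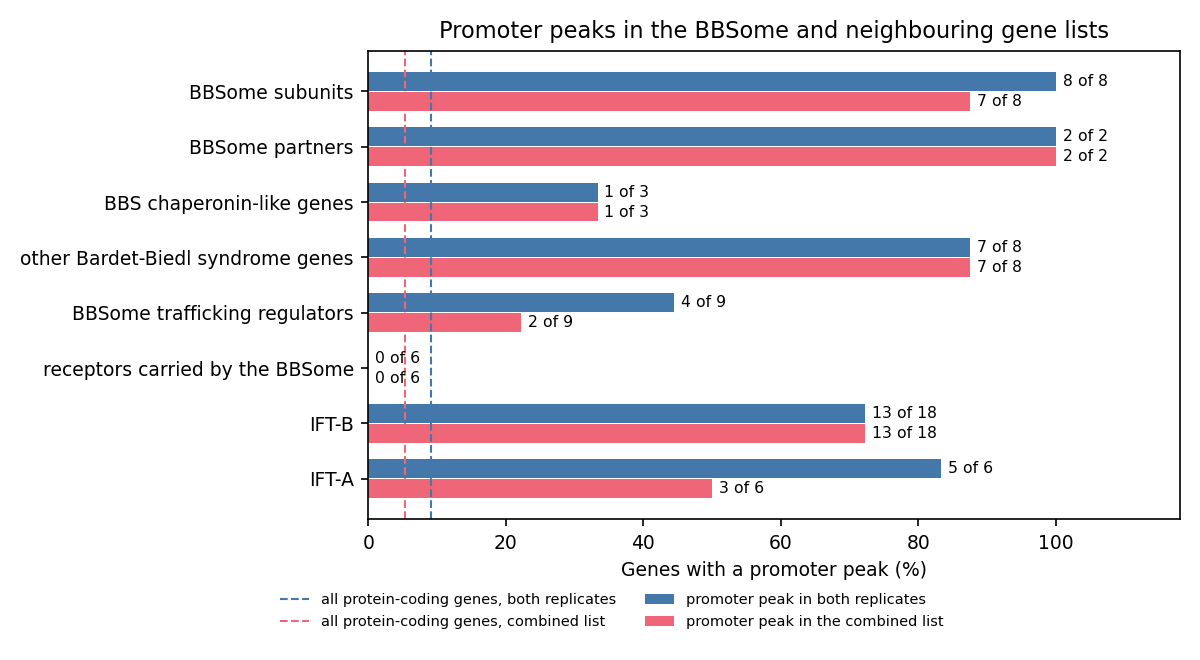
Percent of genes with a promoter peak in both replicates (blue) and in the combined list (red) for the BBSome subunits and partners and 6 lists of related genes, with counts beside the bars. Dashed lines mark all protein-coding genes, 9.05% and 5.26%. Subunits and partners stand at 8 of 8 and 2 of 2 in both replicates, and receptors carried by the BBSome at 0 of 6.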

How the data were processed

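ChIP-seq with an RFX2 antibody was done on testis of 2 WT mice, with 1 input per mouse. According to the methods of the study and the submitters' processing notes, base calls were made with CASAVA 1.8.2, reads were mapped to GRCm38 (Ensembl 70) with Bowtie 0.12.7 keeping unique locations only, and peaks were called against input with MACS2 2.0.10.20130520 without its fragment model. The library of replicate 2 was run again, and the reads of that run that mapped to the human genome were taken out, which could affect conserved sequence in replicate 2. The deposited lists of replicates 1 and 2 give each peak a value on a −log10 scale, without saying if a p or a q was transformed. The deposited combined list gives a whole-number score equal to 10 times −log10 p, −log10 of p and of q, the summit, and the ratio of pileup to local background (fold enrichment). It is filed under replicate 2, but its peak names begin with "all", and it was taken as a call on both mice. The methods also describe a selection of reproducible peaks by the irreproducible discovery rate (IDR) between the replicates. Whether the combined list is its outcome is not stated, and its overlap with a replicate is not independent of that replicate. The depth of the libraries is unknown, so no counting interval is given.

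Peaks were intersected, at an overlap of at least 1 bp, with promoters of 21938 protein-coding genes of GENCODE mouse release 21 on GRCm38, and annotated starts can differ from those used by the study. Genes were given the strongest peak that met any of their promoters, and peaks were ranked by score in the replicates and by −log10 p in the combined list. The X-box palindrome was built from GTTGCCA and its reverse complement. Scans were tested on simulated sequence with planted sites. Python 3.11.15, pandas 2.3.3, numpy 2.4.6 and pysam 0.24.0 were used, and overlaps were checked with bedtools 2.31.1.

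The members, the gene lists and the settings were chosen with earlier results of these data known. Named genes were all members, genes sharing their peaks, and, per list, the 3 with the highest −log10 p and those with no promoter peak. Of the other Bardet-Biedl syndrome genes, 8 of 9 were matched by name, and Cfap418 is not analysed here. The search for spaced arms, the RefSeq start and the count of summits near a start were added after seeing the data. Alternatives were the promoter window, the 5′-most start, the summit or centre alone, stricter scores, mismatches, search windows, rankings and each replicate left out.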

Additional observations from a re-analysis of the deposited data

How the results depend on the processing

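Of 38 alternative values, 30 were kept and 8 moved, by a factor of 1.5 for counts and ranks. The signed median summit distance was judged by the spread between members, a wide bar that says little about its stability. With the highest 10% of the combined list by −log10 p, 3 members kept a promoter peak in place of 9. The share of all genes at this cut is not given, so this count has no background beside it. The X-box palindrome was found in 7 members with at most 4 mismatches and in 1 around the peak centre, in place of 4. Over all 1003 combined promoter peaks these shares were 78.1% and 33.2%, in place of 58.9%. Arms 0 to 4 bases apart with at most 2 mismatches, added after seeing the data, gave 8 members and 64.5% of promoter peaks. Around the peak centre these fell to 4 members and 37.2%. The median rank of 430 became 1179 by fold enrichment and 256 among promoter peaks only. Summits within 20 bp of a start, a count added after seeing the data, fell from 7 members to 3 with the RefSeq start. Leaving out either replicate gave 10 members (10 to 10), which could not have been lower, since both replicates together already gave 10. With the narrower promoter of 500 bp upstream and 50 bp downstream, or when the centre itself had to lie in the promoter, Bbs2 had no promoter peak, so both replicates gave 9 of 10. The share of all genes under these settings is not given either. Depth is unknown, so a weak peak that is not listed could have been missed. No paired analysis was possible because the inputs that share replicate numbers with the immunoprecipitates have no lists of their own and no result comes from a test.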

Other observations

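Among the members, the peaks of replicate 2 inside gene bodies but outside promoters lay in 4 genes. Bbip1 had 2, with scores up to 5.31, Bbs9 had 2, with scores up to 7.998, and Ttc8 and Lztfl1 had 1 each, with scores of 4.08 and 4.13. In replicate 1 such peaks lay in Bbs9 (9), Bbs2 (3, with scores up to 6.94) and Lztfl1 (1, with a score of 5.90). In Bbs9 and Lztfl1 both mice had a peak of this kind, and the highest score of any of them was 16.3, at Bbs9 in replicate 1. In Bbs9, 2 pairs of peaks overlapped between the mice, and in Lztfl1 the peaks were 4.29 kb apart.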
